A study of Mus musculus with 18 samples.

Results

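The genes described here are 37 listed genes of fatty acid oxidation and of the lipid stores that feed it, measured in mouse bone marrow-derived macrophages with and without IL-4. They are listed by name for their function, and the list was drawn up with earlier results of these data known. A gene counted as found when a non-control probe of the array carries its symbol (Eci1 under Dci, Plin2 under Adfp), and each gene is represented by the probe with the highest mean signal. Of 21307 named genes on the array, 36 were members found in this way. Hadh, which encodes the hydroxyacyl-CoA dehydrogenase acting on shorter chains, has a probe under the older name Hadhsc, so it is given separately and enters no count. Of the 36 genes, 34 were among the 15497 genes tested, and all 34 were well above background on all 18 arrays, so no member passed only through 1 group. The remaining pair, Ppara and Pdk4, was not tested.

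Fatty acids enter oxidation in steps that the members cover in order. Acyl-CoA synthetases join the fatty acid to coenzyme A, and the carnitine shuttle then carries the acyl group across the mitochondrial membranes, with Cpt1a as the regulated entry step. Inside the mitochondrion a cycle of dehydrogenation, hydration, a second dehydrogenation and thiolysis shortens the chain, and the electrons pass through the electron transfer flavoprotein to the respiratory chain. Very long and branched chains are shortened first in peroxisomes. Triglyceride lipases release fatty acids from lipid droplets, and perilipins coat those droplets. In macrophages, IL-4 acting through STAT6 is known for a programme that includes raised fatty acid oxidation, with the coactivator PGC-1 beta and the PPAR receptors among its regulators.

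The study asked how IL-4 changes gene expression in macrophages that lack the transcription factor IRF4. The groups were Irf4-/- cells in mock culture, after 4 h of IL-4 and after 18 h of IL-4, and Irf4+/- cells in the same 3 conditions, with 3 arrays in each of the 6 groups. Every mouse was C57BL6/J and 8 to 12 weeks old, and the controls were heterozygous littermates, so no cells with both alleles intact were measured. Each sample came from pooled bone marrow of several animals, labelled as 2 males and 1 female, grown in human CSF1 at 200 ng/ml. IL-4 was given at 10 ng/ml, and mock cells were cultured for 18 h without it. The 4 h time thus has no mock of its own length. In every 4 h change, and in every step between 4 h and 18 h, IL-4 and the length of culture cannot be told apart. The letters A, B and C in the titles mark 3 independent experiments. The deletion in the Irf4-/- allele and the cells it affects were not described in the labels.

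The arrays had between 63.4% and 74.4% of 43379 non-control spots well above background, and 3 arrays a group limits the precision of every comparison. Levels below are log2 intensities relative to the array's 75th percentile, 0 being that percentile. Values in a list run in the order of experiments A, B and C. All 10 macrophage markers were well above background on all 18 arrays. So were 5 of 6 neutrophil, 4 of 6 dendritic and 3 of 6 fibroblast markers. The neutrophil marker S100a9 ran from 3.51 to 5.45. These markers thus do not show that the cultures held macrophages only. The Irf4 probe did not separate the genotypes, since the log2 difference of Irf4-/- against Irf4+/- cells was 0.34 ± 0.39 (SE) in mock, 0.05 ± 0.39 after 4 h and 0.25 ± 0.39 after 18 h. No source used here says where this probe lies relative to the deleted part, so it checks no label. The 18 arrays lay on 7 slides, and every slide but 1 held a single genotype, so genotype and slide cannot be told apart within an experiment. In experiments A and B the 3 conditions of a genotype shared a slide, and in experiment C they did not. Over the 34 members, the median deviation of an array from each gene's mean over the 18 arrays was between 0.08 and 0.33 in experiment A and between -0.23 and -0.07 in experiment C. Arrays of the same experiment thus shared much of their spread, which is why a fit with the experiment as a block is given beside the fit without it. The log2 changes are the same in both fits, and the ± is the SE of the fit without the block, or of the fit with it for a change called only with the block. In these bulk cultures, fewer cells of a type and less RNA per cell cannot be told apart.

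Averaged over both genotypes, Cpt1a, Acsl3 and Acot2 were lower and Mlycd was higher after 4 h of IL-4 than in the 18 h mock. Crat, Acads and Etfdh rose and Acsl1 fell after 18 h. The threshold for a call was an adjusted p of 0.05 (limma, Benjamini-Hochberg over all 15497 genes). These are 4 of 34 members after 4 h, a share close to the 11.2% of all genes called. With the experiment as a block, 14 members were called (7 higher and 7 lower), against 31.8% of all genes called in either direction, 17.2% higher and 14.7% lower. The 4 of 34 after 18 h stand against 9.89% of all genes. With the block, 19 members were called, 17 higher and 2 lower, against 30.2% of all genes called in either direction, 17.9% higher and 12.3% lower. The median log2 change of the 34 members was 0.04 at 4 h, as over all genes tested, and 0.27 at 18 h, against 0.08 over all genes tested. At 18 h 26 of the 34 members lay above 0, against 17 of 34 at 4 h. The median over all genes tested was above 0 at both times, so most genes lay above 0 too, and their share is not given.

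**Figure D1:**
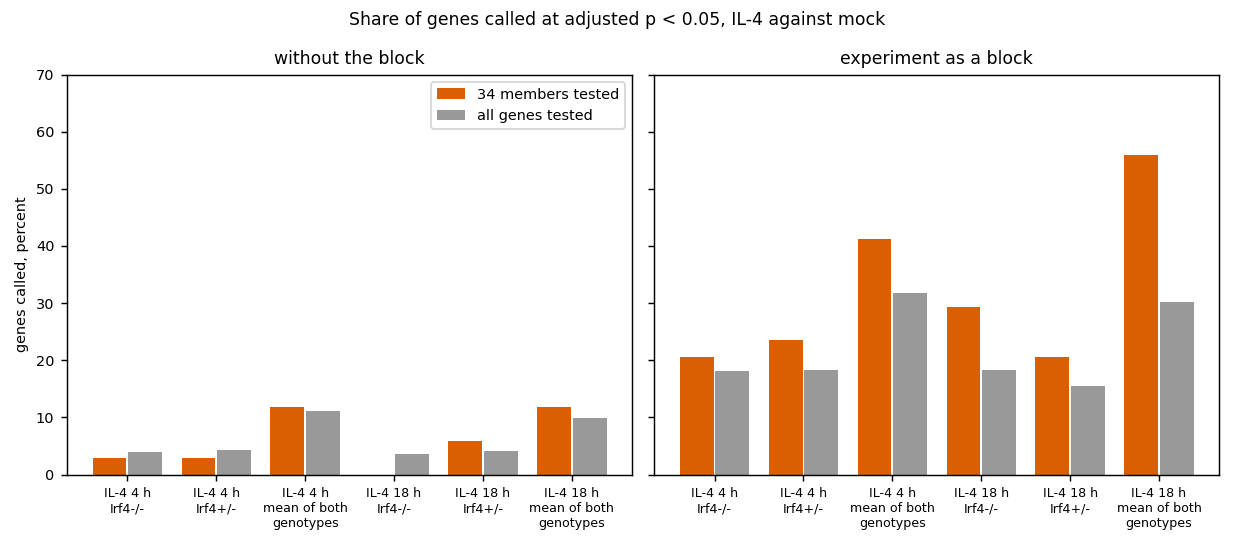
Percent of genes called at adjusted p under 0.05 for IL-4 against mock (vertical axis), with orange bars for the 34 members tested and grey bars for all 15497 genes, without the block (left) and with the experiment as a block (right). The orange and grey bars are close without the block, and the widest gap is at 18 h over both genotypes with the block, where 55.9% of the members and 30.2% of all genes were called.

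Within single genotypes the counts were lower. In Irf4-/- cells 1 member was called after 4 h (3.91% of all genes) and 7 with the block (18.2%), and in Irf4+/- cells 1 member was called after 4 h (4.27%) and 8 with the block (18.2%). After 18 h, limma called 0 members in Irf4-/- cells (3.54% of all genes), where 5 had an unadjusted p under 0.05, and 10 with the block (18.4%). In Irf4+/- cells at 18 h it called 2 members (4.14%), and 7 with the block (15.5%). Between 4 h and 18 h, 0 members were called in Irf4-/- cells (0.568% of all genes), where 8 had an unadjusted p under 0.05, and 7 with the block (8.34%), all of them higher (4.68% of all genes were called higher). In Irf4+/- cells the same step called 1 member (1.12%) and 9 with the block (11.4%), 8 of them higher (5.12% called higher). These 2 genotypes' comparisons have separate arrays, whereas the 4 h and the 18 h comparisons of 1 genotype share its mock arrays. The percentages are shares of all genes called at an adjusted p under 0.05. The share of all genes with an unadjusted p under 0.05 is not given, so those member counts have no comparator here.

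**Figure D2:**
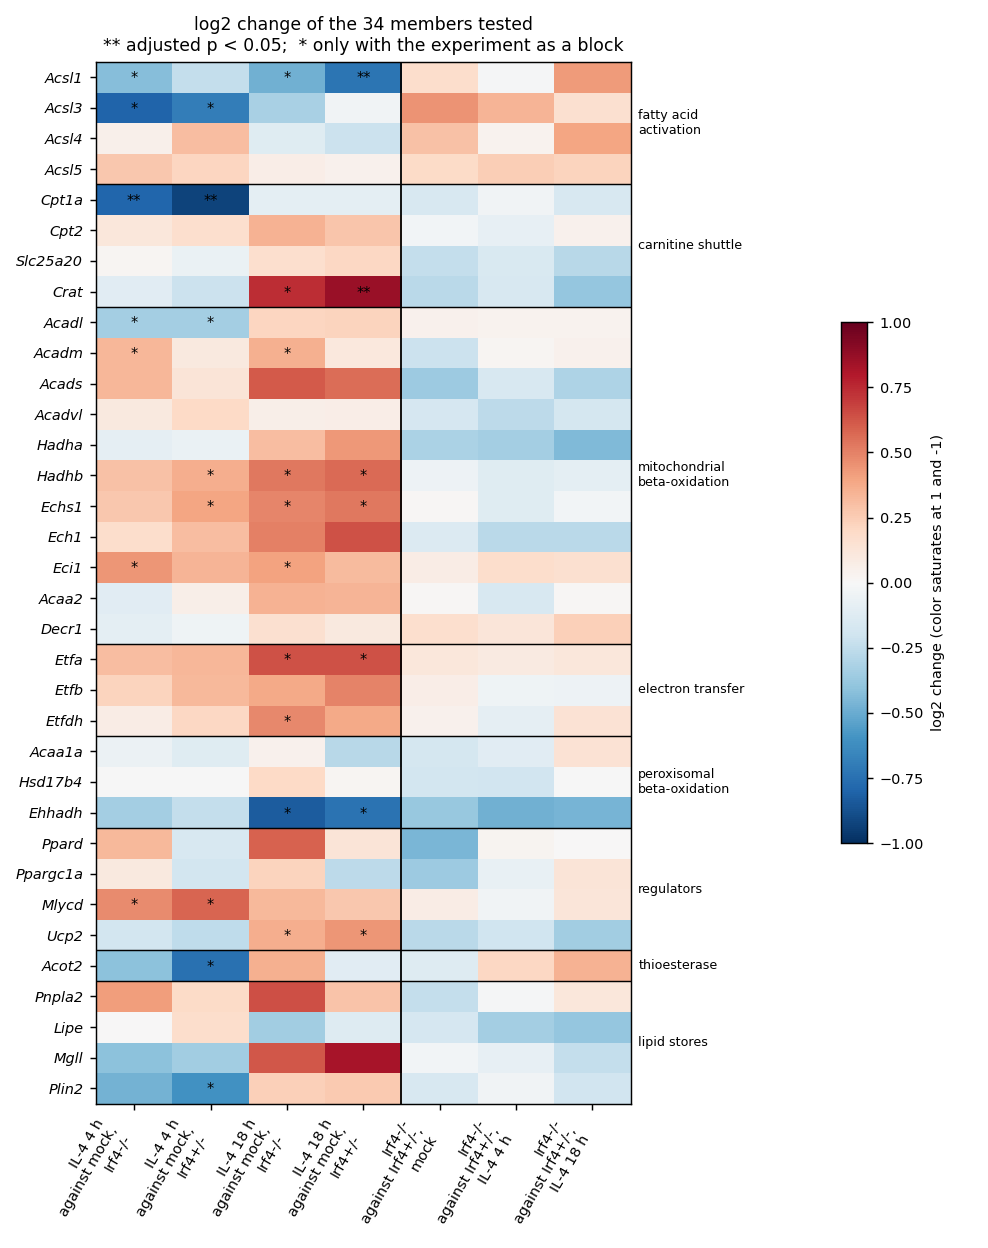
Log2 change of each of the 34 members tested (one line of the map each, grouped by role), for IL-4 against mock in each genotype (left of the black line) and for Irf4-/- against Irf4+/- in each condition (right), colour running from -1 to 1. A double star marks an adjusted p under 0.05 and a single star marks a call made only with the experiment as a block: Cpt1a is dark blue at 4 h in both genotypes, Crat is dark red at 18 h in both, the electron transfer genes and most mitochondrial oxidation genes are red at 18 h, and no star stands right of the line.

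The carnitine shuttle held the member with the clearest early change. Cpt1a encodes carnitine palmitoyltransferase 1A of the outer mitochondrial membrane, the step at which long-chain acyl groups are committed to oxidation. It was lower than in mock in every culture after 4 h of IL-4, and at 18 h it was near the mock level. The mock cultures ran for 18 h, so the 4 h difference mixes IL-4 with the length of culture. Cpt1a in Irf4-/- cells stood at 2.45, 1.97 and 2.05 in mock, 1.38, 1.51 and 1.20 after 4 h and 2.24, 2.00 and 1.93 after 18 h. Cpt1a in Irf4+/- cells stood at 2.58, 2.42 and 1.97 in mock, 1.43, 1.46 and 1.31 after 4 h and 2.36, 2.30 and 2.01 after 18 h. All 6 arrays at 4 h lay below all 6 mock arrays, while the 18 h and mock arrays overlapped. At 4 h the log2 change was -0.80 ± 0.19 in Irf4-/- cells (SE, n = 3 arrays a group, limma adjusted p = 0.0264) and -0.92 ± 0.19 in Irf4+/- cells (adjusted p = 0.00987). The 4 h level over both genotypes was 0.551 times the mock level (log2 change -0.86 ± 0.13, adjusted p = 0.000501). Within experiments the change lay between -1.06 and -0.47 in Irf4-/- cells and between -1.15 and -0.66 in Irf4+/- cells. The call in Irf4-/- cells was lost without mock A, mock C, 4 h A or 4 h C (adjusted p between 0.0619 and 0.139), and also with normexp background correction (0.380), with no filter on dim probes (0.0519) and with only the groups compared in the fit (0.123). The call in Irf4+/- cells was lost without mock A (adjusted p = 0.0534), with normexp (0.0868) and with only the groups compared (0.150), while the call over both genotypes held in all 24 alternative settings. The other Cpt1a probe gave -0.79 at 4 h over both genotypes. After 18 h the change was -0.10 ± 0.19 in Irf4-/- and -0.10 ± 0.19 in Irf4+/- cells, neither called. The step between 4 h and 18 h was 0.70 ± 0.12 in Irf4-/- cells and 0.82 ± 0.12 in Irf4+/- cells, called only with the block (adjusted p = 0.00473 in Irf4-/- and 0.00116 in Irf4+/- cells; without it, 0.155 in Irf4-/- and 0.0512 in Irf4+/- cells).

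Because Cpt1a is the entry step and the member with the lowest adjusted p at 4 h, the sequence around its start site is shown (RefSeq, GRCm38.p6, chr19:3323051-3323350, plus strand, 250 bases before the annotated start and 50 from it on, those 50 in capitals).
Cpt1a: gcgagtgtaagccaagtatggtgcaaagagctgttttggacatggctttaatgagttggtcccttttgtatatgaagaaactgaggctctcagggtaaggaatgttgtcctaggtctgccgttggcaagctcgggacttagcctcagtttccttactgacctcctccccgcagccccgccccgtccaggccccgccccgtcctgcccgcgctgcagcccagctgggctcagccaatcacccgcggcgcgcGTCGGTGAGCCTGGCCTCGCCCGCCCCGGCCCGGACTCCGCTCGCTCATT
The window is 62.3% G and C and holds 22 CpG dinucleotides.

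**Figure D3:**
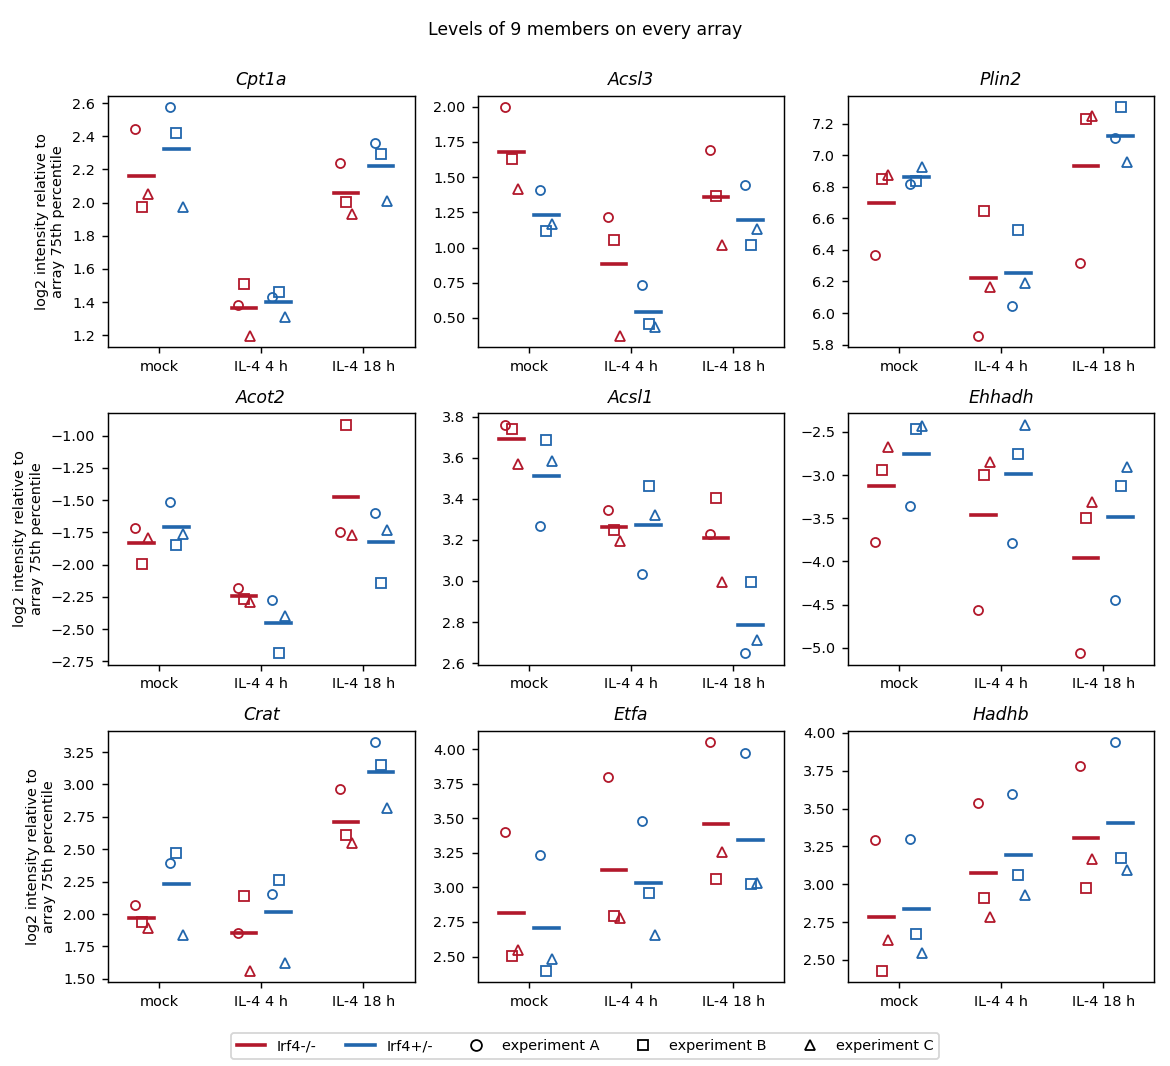
Levels of 9 members on every array (log2 intensity relative to the array's 75th percentile; axes differ between panels), with red for Irf4-/- and blue for Irf4+/-, bars at group means and symbols for experiments A, B and C. Cpt1a, Acsl3, Plin2 and Acot2 dip at 4 h, Acsl1 and Ehhadh are lowest at 18 h, and Crat, Etfa and Hadhb are highest at 18 h; the 6 Cpt1a arrays at 4 h lie between 1.20 and 1.51, below the mock arrays at 1.97 to 2.58.

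Crat, by contrast, rose late. Crat encodes carnitine acetyltransferase, which moves acetyl and other short acyl groups between coenzyme A and carnitine. Crat levels in Irf4-/- cells were 2.07, 1.94 and 1.90 in mock cultures, 1.85, 2.14 and 1.56 at 4 h of IL-4 and 2.97, 2.61 and 2.55 at 18 h. Crat levels in Irf4+/- cells were 2.39, 2.47 and 1.84 in mock cultures, 2.16, 2.26 and 1.63 at 4 h of IL-4 and 3.32, 3.15 and 2.82 at 18 h. All 6 arrays at 18 h lay above all 6 mock and all 6 4 h arrays, and the 4 h and mock arrays overlapped. At 18 h the change from mock was 0.74 ± 0.14 in Irf4-/- cells (called with the block only, adjusted p = 0.00268; 0.112 without it) and 0.86 ± 0.23 in Irf4+/- cells (adjusted p = 0.049). Over both genotypes the level at 18 h was 1.74 times that in mock (log2 change 0.80 ± 0.16, adjusted p = 0.00451). Against 4 h, the 18 h level was higher by 0.86 ± 0.14 in Irf4-/- cells (adjusted p = 0.15, and 0.00278 with the block) and by 1.08 ± 0.23 in Irf4+/- cells (adjusted p = 0.0338). The call in Irf4+/- cells at 18 h was lost when any of the 6 arrays it compares was left out, with adjusted p between 0.0526 and 0.233. It was also lost with both normexp settings, with no filter on dim probes and with only the groups compared in the fit (adjusted p between 0.0609 and 0.295). Against 4 h it was lost without each of the arrays compared but 18 h C (adjusted p of up to 0.166), and with normexp (0.462), with no filter on dim probes (0.0672) and with only the groups compared (0.367). Over both genotypes the 18 h call was lost only with normexp background correction, among 24 alternative settings (adjusted p = 0.144).

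The other shuttle genes moved less. Cpt2 encodes the inner membrane transferase that gives the acyl group back to coenzyme A. For Cpt2, the Irf4-/- arrays read 2.80, 2.85 and 2.83 in mock, 3.04, 2.85 and 2.94 at 4 h and 3.17, 3.17 and 3.20 at 18 h. For Cpt2, the Irf4+/- arrays read 3.06, 2.74 and 2.76 in mock, 3.19, 3.11 and 2.76 at 4 h and 3.52, 3.05 and 2.82 at 18 h. The 18 h arrays of Irf4-/- cells lay above the mock arrays, and in Irf4+/- cells the groups overlapped. The 18 h change over both genotypes was 0.31 ± 0.10, called only with the block (adjusted p = 0.0276; 0.168 without it). Slc25a20, the carnitine and acylcarnitine carrier of the inner membrane, was not called in any of the 14 comparisons, and its change over both genotypes was -0.02 ± 0.15 at 4 h and 0.19 ± 0.15 at 18 h.

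Of the 4 acyl-CoA synthetases, Acsl3 fell at 4 h and Acsl1 fell at 18 h without the block, and with it Acsl1 was lower at 4 h too. Acsl3 is the synthetase known for its part in forming lipid droplets. Acsl3 in Irf4-/- cells stood at 2.00, 1.63 and 1.42 in mock, 1.22, 1.06 and 0.37 after 4 h and 1.69, 1.36 and 1.02 after 18 h. Acsl3 in Irf4+/- cells stood at 1.41, 1.12 and 1.17 in mock, 0.74, 0.46 and 0.43 after 4 h and 1.44, 1.02 and 1.13 after 18 h. The 4 h arrays of both genotypes lay below the mock arrays. Over both genotypes the 4 h level was 0.597 times mock (log2 change -0.74 ± 0.17, adjusted p = 0.0101), and within experiments the change lay between -1.04 and -0.57 in Irf4-/- cells and between -0.73 and -0.66 in Irf4+/- cells. Within single genotypes it was called only with the block (-0.80 ± 0.14 in Irf4-/- cells, adjusted p = 0.00152, and -0.69 ± 0.14 in Irf4+/- cells, adjusted p = 0.00365). At 18 h the change was -0.32 ± 0.24 in Irf4-/- cells and -0.03 ± 0.24 in Irf4+/- cells, neither called. Between 4 h and 18 h it was 0.48 ± 0.24 in Irf4-/- cells, not called, and 0.65 ± 0.14 in Irf4+/- cells, called only with the block (adjusted p = 0.00919).

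Acsl1 is the long-chain synthetase that macrophages are known to raise under inflammatory stimuli. Acsl1 levels in Irf4-/- cells were 3.76, 3.74 and 3.57 in mock cultures, 3.35, 3.25 and 3.19 at 4 h of IL-4 and 3.23, 3.40 and 3.00 at 18 h. Acsl1 levels in Irf4+/- cells were 3.27, 3.69 and 3.58 in mock cultures, 3.03, 3.46 and 3.32 at 4 h of IL-4 and 2.65, 2.99 and 2.71 at 18 h. In both genotypes the 18 h arrays lay below the mock arrays. After 18 h the change was -0.48 ± 0.13 in Irf4-/- cells (called with the block only, adjusted p = 0.0218; 0.187 without it) and -0.73 ± 0.17 in Irf4+/- cells (adjusted p = 0.0244). The 18 h level over both genotypes was 0.658 times mock (log2 change -0.60 ± 0.12, adjusted p = 0.00417). The Irf4+/- call was lost without mock B, mock C, 18 h A or 18 h C (adjusted p between 0.0987 and 0.109), with quantile normalization (0.0503) and with only the groups compared in the fit (0.291), and the call over both genotypes held in all 24 alternative settings. The other 2 Acsl1 probes gave -0.62 and -0.66 for the same comparison. At 4 h the change over both genotypes was -0.33 ± 0.09, called only with the block (adjusted p = 0.0136), and the other 2 probes gave -0.43 and -0.37. In Irf4-/- cells it was -0.43 ± 0.13 (adjusted p = 0.0368 with the block), so for this probe the mean at 4 h was already near that at 18 h. In Irf4+/- cells it was -0.24 ± 0.17 at 4 h, not called, and the step between 4 h and 18 h was -0.49 ± 0.13 (adjusted p = 0.0286 with the block). For that step the other 2 probes gave -0.26 and -0.27 in Irf4-/- cells and -0.14 and -0.31 in Irf4+/- cells. The different timing in the genotypes thus rests on the printed probe.

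Acsl5, a synthetase of mitochondria and endoplasmic reticulum, changed little. For Acsl5, the Irf4-/- arrays read 3.45, 2.67 and 2.93 in mock, 3.67, 3.07 and 3.11 at 4 h and 3.38, 2.82 and 3.05 at 18 h. For Acsl5, the Irf4+/- arrays read 3.37, 2.37 and 2.72 in mock, 3.54, 2.66 and 2.91 at 4 h and 3.26, 2.43 and 2.89 at 18 h. Mock and IL-4 groups overlapped in both genotypes. The 4 h change over both genotypes was 0.24 ± 0.08, called only with the block (adjusted p = 0.0256), and the 18 h change was 0.05 ± 0.23. Acsl4, which prefers arachidonic acid, was not called in any comparison, with a change of 0.18 ± 0.15 at 4 h and -0.17 ± 0.15 at 18 h.

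The 11 tested genes of the mitochondrial cycle itself all had positive 18 h changes over both genotypes, between 0.06 for Acadvl and 0.59 for Acads. Without the block 1 of them rose past the threshold (5.05% of all genes were called higher), and with it 9 did (17.9%). At 4 h they ranged between -0.34 for Acadl and 0.39 for Eci1, with 0 called without the block, and with it 4 higher (17.2% of all genes) and 1 lower (14.7%). The first step of the cycle is done by acyl-CoA dehydrogenases that differ in the chain length they take. Acads, the short-chain one, was the 1 called without the block. Acads in Irf4-/- cells stood at -0.36, -0.12 and -0.21 in mock, -0.11, 0.21 and 0.19 after 4 h and 0.14, 0.45 and 0.55 after 18 h. Acads in Irf4+/- cells stood at 0.45, 0.12 and -0.18 in mock, 0.55, 0.25 and -0.04 after 4 h and 1.18, 0.51 and 0.38 after 18 h. In Irf4-/- cells the 18 h arrays lay above the mock arrays, and in Irf4+/- cells the groups overlapped although all 3 experiments moved up. The 18 h change was 0.61 ± 0.23 in Irf4-/- and 0.56 ± 0.23 in Irf4+/- cells, neither called, and 0.59 ± 0.17 over both (adjusted p = 0.0351). This call was lost in 13 of 24 alternative settings. Among them were 8 that leave out 1 array (Irf4-/- mock A, B or C, Irf4-/- 18 h B or C, Irf4+/- mock B or C, or Irf4+/- 18 h A), with adjusted p between 0.0579 and 0.0982.

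Acadl, the long-chain dehydrogenase, went down and then up. Acadl levels in Irf4-/- cells were 1.77, 0.92 and 1.00 in mock cultures, 1.14, 0.77 and 0.77 at 4 h of IL-4 and 1.72, 1.24 and 1.39 at 18 h. Acadl levels in Irf4+/- cells were 1.52, 1.05 and 1.01 in mock cultures, 1.18, 0.65 and 0.73 at 4 h of IL-4 and 1.70, 1.31 and 1.24 at 18 h. The 18 h arrays of both genotypes lay above the 4 h arrays, while mock overlapped with both. These changes were called only with the block: the 4 h change over both genotypes was -0.34 ± 0.07 (adjusted p = 0.00375; 0.29 without it), the 18 h change was 0.22 ± 0.07 (adjusted p = 0.0393), the 4 h change was -0.34 ± 0.11 in Irf4-/- cells (adjusted p = 0.0421) and -0.34 ± 0.11 in Irf4+/- cells (adjusted p = 0.0427), and 18 h against 4 h gave 0.56 ± 0.11 in Irf4-/- cells (adjusted p = 0.00725) and 0.56 ± 0.11 in Irf4+/- cells (adjusted p = 0.00487). Acadm, the medium-chain dehydrogenase, did not dip. For Acadm, the Irf4-/- arrays read 4.16, 3.62 and 3.79 in mock, 4.54, 3.99 and 4.03 at 4 h and 4.47, 3.94 and 4.22 at 18 h. For Acadm, the Irf4+/- arrays read 4.54, 3.80 and 3.87 in mock, 4.63, 3.91 and 3.97 at 4 h and 4.68, 3.90 and 3.93 at 18 h. Groups overlapped in both genotypes, since experiment A stood above B and C throughout. With the block Acadm was called over both genotypes, at 0.22 ± 0.07 after 4 h (adjusted p = 0.0401) and 0.23 ± 0.07 after 18 h (adjusted p = 0.0313). The same values for Irf4-/- cells were 0.33 ± 0.10 after 4 h (adjusted p = 0.0434) and 0.36 ± 0.10 after 18 h (adjusted p = 0.0311). For Irf4+/- cells, with the SE of the same fit, it was 0.10 ± 0.10 at 4 h and 0.10 ± 0.10 at 18 h, and the difference between the genotypes' changes was 0.23 ± 0.15 at 4 h and 0.26 ± 0.15 at 18 h, none of them called. Acadvl, the very-long-chain enzyme, was not called in any comparison.

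Hadha and Hadhb encode the alpha and beta subunits of the mitochondrial trifunctional protein, which does the last 3 steps of the cycle on long chains. Hadhb went up in all 3 experiments of both genotypes. Hadhb in Irf4-/- cells stood at 3.29, 2.43 and 2.63 in mock, 3.53, 2.91 and 2.79 after 4 h and 3.78, 2.97 and 3.17 after 18 h. Hadhb in Irf4+/- cells stood at 3.30, 2.67 and 2.55 in mock, 3.60, 3.06 and 2.93 after 4 h and 3.94, 3.17 and 3.09 after 18 h. The groups overlapped because experiment A stood higher, and within experiments the 18 h change lay between 0.48 and 0.64. Over both genotypes it was 0.33 ± 0.07 at 4 h and 0.54 ± 0.07 at 18 h, called only with the block (adjusted p = 0.00316 at 4 h and 7.44e-05 at 18 h; 0.195 at 18 h without it). With the block it was also called at 18 h in Irf4-/- cells, at 0.52 ± 0.10 (adjusted p = 0.00311), and in Irf4+/- cells at 18 h, at 0.57 ± 0.10 (adjusted p = 0.00166), and at 4 h, at 0.36 ± 0.10 (adjusted p = 0.0232). Hadha was less even. Hadha levels in Irf4-/- cells were 0.09, -0.01 and 0.18 in mock cultures, 0.13, 0.03 and -0.17 at 4 h of IL-4 and 0.50, 0.53 and 0.14 at 18 h. Hadha levels in Irf4+/- cells were 0.59, 0.45 and 0.17 in mock cultures, 0.59, 0.22 and 0.20 at 4 h of IL-4 and 1.34, 0.64 and 0.52 at 18 h. The 18 h arrays of Irf4-/- cells lay above the 4 h arrays, and the other pairs of conditions overlapped in both genotypes. At 18 h the change over both genotypes was 0.37 ± 0.11, called only with the block (adjusted p = 0.0188), as was 18 h against 4 h in Irf4+/- cells, at 0.50 ± 0.15 (adjusted p = 0.0496). The other kept Hadha probe gave -0.20 at 18 h and -0.47 at 4 h over both genotypes. In Irf4-/- cells it gave -0.68 at 18 h and -0.96 at 4 h, and in Irf4+/- cells 0.27 at 18 h and 0.02 at 4 h. At 18 h the probes thus shared a direction in Irf4+/- cells only, and the direction over both genotypes is not settled by them.

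Both genes start from 1 short stretch of chromosome 5 in opposite directions, which is why it is shown. Their annotated start sites lie 273 bases apart, Hadha on the minus and Hadhb on the plus strand, and their windows share 228 bases (RefSeq, GRCm38.p6, Hadhb window chr5:30155003-30155302, plus strand). Capitals mark the shared bases, chr5:30155003-30155230.
Hadhb: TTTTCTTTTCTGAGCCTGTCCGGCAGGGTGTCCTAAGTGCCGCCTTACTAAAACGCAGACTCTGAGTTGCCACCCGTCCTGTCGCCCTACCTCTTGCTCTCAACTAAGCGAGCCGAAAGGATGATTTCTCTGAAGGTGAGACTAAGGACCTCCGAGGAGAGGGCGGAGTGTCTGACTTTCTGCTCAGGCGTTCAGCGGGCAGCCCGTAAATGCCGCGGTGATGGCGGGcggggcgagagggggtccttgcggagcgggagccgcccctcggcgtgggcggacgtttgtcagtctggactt
The shared stretch is 57.0% G and C with 15 CpG dinucleotides, and the whole window is 60.7% G and C with 24.

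The remaining enzymes of the cycle mostly moved with Hadhb. Echs1 encodes the hydratase for short chains. For Echs1, the Irf4-/- arrays read 2.96, 2.28 and 2.49 in mock, 3.11, 2.76 and 2.67 at 4 h and 3.52, 2.86 and 2.82 at 18 h. For Echs1, the Irf4+/- arrays read 3.08, 2.38 and 2.24 in mock, 3.40, 2.77 and 2.73 at 4 h and 3.76, 2.87 and 2.66 at 18 h. It was higher after 4 h and after 18 h in all 3 experiments of both genotypes, with overlapping groups. Its changes over both genotypes were 0.33 ± 0.09 at 4 h (adjusted p = 0.011 with the block, 0.467 without) and 0.51 ± 0.09 at 18 h (adjusted p = 0.000763 with the block, 0.227 without). Within genotypes the block gave calls at 18 h, at 0.49 ± 0.12 (adjusted p = 0.0169) in Irf4-/- and 0.53 ± 0.12 (adjusted p = 0.0112) in Irf4+/- cells, and at 4 h in Irf4+/- cells, at 0.40 ± 0.12 (adjusted p = 0.0423). Acaa2 is the mitochondrial thiolase, which cuts off acetyl-CoA. Acaa2 in Irf4-/- cells stood at 3.84, 3.76 and 3.55 in mock, 3.72, 3.72 and 3.38 after 4 h and 4.14, 4.16 and 3.89 after 18 h. Acaa2 in Irf4+/- cells stood at 4.00, 3.88 and 3.25 in mock, 4.07, 4.00 and 3.22 after 4 h and 4.44, 4.08 and 3.63 after 18 h. In Irf4-/- cells the 18 h arrays lay above mock and 4 h, and in Irf4+/- cells they overlapped. The 18 h change over both genotypes was 0.34 ± 0.10, called only with the block (adjusted p = 0.0158). Hadh, outside the counts, changed by 0.25 ± 0.20 at 4 h and 0.26 ± 0.20 at 18 h over both genotypes and was not called with or without the block.

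Unsaturated fatty acids need auxiliary isomerases and a reductase. Eci1, the enoyl-CoA isomerase, was higher at both times. Eci1 levels in Irf4-/- cells were 2.25, 0.81 and 1.19 in mock cultures, 2.66, 1.46 and 1.45 at 4 h of IL-4 and 2.54, 1.35 and 1.58 at 18 h. Eci1 levels in Irf4+/- cells were 2.03, 0.86 and 1.15 in mock cultures, 2.52, 1.35 and 1.19 at 4 h of IL-4 and 2.46, 1.09 and 1.45 at 18 h. Experiment A stood above the others by more than any IL-4 change, so the groups overlapped, yet all 3 experiments of both genotypes moved up at both times. Over both genotypes the change was 0.39 ± 0.08 at 4 h and 0.36 ± 0.08 at 18 h, called only with the block (adjusted p = 0.00259 at 4 h and 0.00483 at 18 h). Within Irf4-/- cells the block gave calls of 0.44 ± 0.12 (adjusted p = 0.0185) at 4 h and 0.40 ± 0.12 (adjusted p = 0.0292) at 18 h, and in Irf4+/- cells the changes of 0.34 ± 0.12 at 4 h and 0.32 ± 0.12 at 18 h (SE of the same fit) were not called. Ech1, the dienoyl-CoA isomerase, followed. For Ech1, the Irf4-/- arrays read 2.08, 1.99 and 2.53 in mock, 2.36, 2.22 and 2.56 at 4 h and 2.57, 2.65 and 2.90 at 18 h. For Ech1, the Irf4+/- arrays read 2.79, 1.97 and 2.25 in mock, 3.10, 2.43 and 2.42 at 4 h and 3.72, 2.51 and 2.70 at 18 h. The 18 h arrays of Irf4-/- cells lay above mock and 4 h, and in Irf4+/- cells they overlapped. Its 18 h change over both genotypes was 0.57 ± 0.18, called only with the block (adjusted p = 0.0278). Decr1, the dienoyl-CoA reductase, was not called, with -0.07 ± 0.10 at 4 h and 0.13 ± 0.10 at 18 h.

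**Figure D4:**
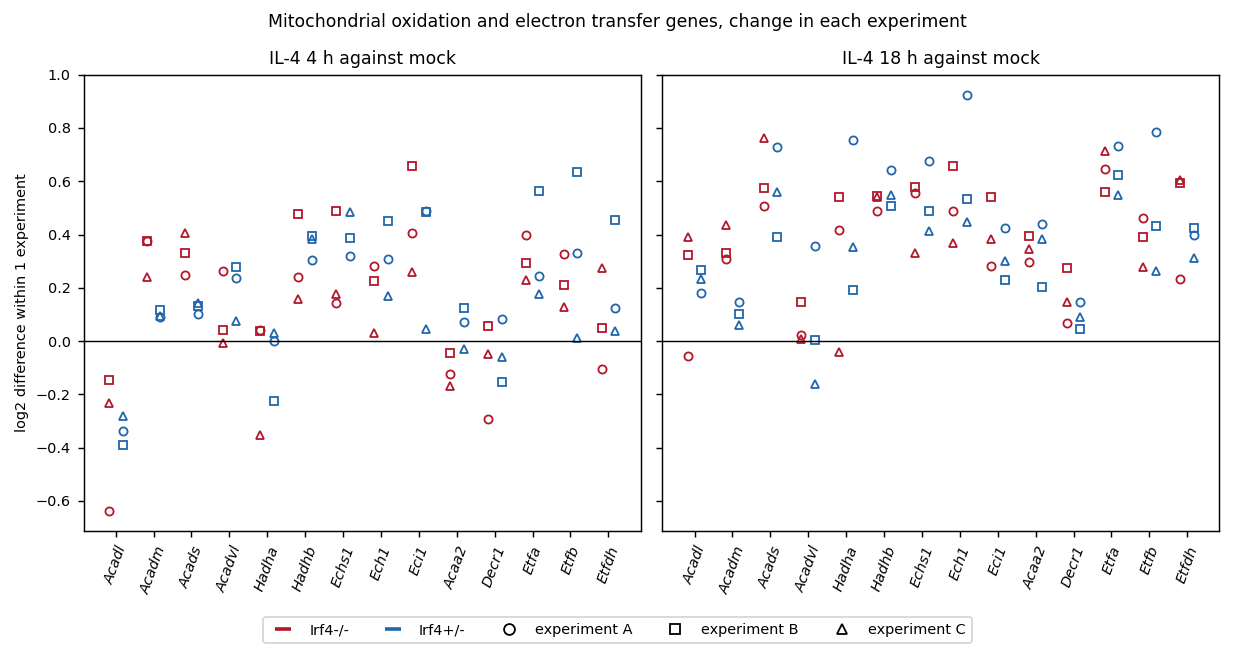
Log2 difference between IL-4 and mock within each experiment for the mitochondrial oxidation and electron transfer genes (horizontal axis), after 4 h (left) and 18 h (right), with red for Irf4-/-, blue for Irf4+/- and symbols for experiments A, B and C. At 18 h most points lie above 0, with those of Etfa between 0.55 and 0.73, and at 4 h all 6 Acadl points lie below 0.

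The 3 genes that take electrons from the dehydrogenases had 18 h changes of 0.43 to 0.64 over both genotypes, and all 3 were called higher with the block (17.9% of all genes were), 1 of them without it (5.05%). Etfa encodes the alpha subunit of the electron transfer flavoprotein. Etfa in Irf4-/- cells stood at 3.40, 2.50 and 2.55 in mock, 3.80, 2.80 and 2.78 after 4 h and 4.05, 3.06 and 3.26 after 18 h. Etfa in Irf4+/- cells stood at 3.24, 2.40 and 2.48 in mock, 3.48, 2.96 and 2.66 after 4 h and 3.97, 3.02 and 3.03 after 18 h. Experiment A was again the highest, and within experiments the 18 h change lay between 0.55 and 0.73. The 18 h change was 0.64 ± 0.11 in Irf4-/- cells (adjusted p = 0.00145 with the block, 0.57 without) and 0.63 ± 0.11 in Irf4+/- cells (adjusted p = 0.00134 with the block, 0.68 without). At 4 h it was 0.32 ± 0.08 over both genotypes, called only with the block (adjusted p = 0.00649). Etfb, the beta subunit, had the same order of conditions with a wider spread. Etfb levels in Irf4-/- cells were 4.66, 4.21 and 4.40 in mock cultures, 4.99, 4.42 and 4.52 at 4 h of IL-4 and 5.12, 4.60 and 4.67 at 18 h. Etfb levels in Irf4+/- cells were 4.99, 3.87 and 4.22 in mock cultures, 5.32, 4.51 and 4.23 at 4 h of IL-4 and 5.78, 4.30 and 4.48 at 18 h. Groups overlapped in both genotypes, and the 18 h change over both was 0.43 ± 0.14 (adjusted p = 0.0294 with the block, 0.434 without). Etfdh encodes the dehydrogenase that passes the electrons on to ubiquinone. For Etfdh, the Irf4-/- arrays read 2.67, 2.61 and 2.53 in mock, 2.56, 2.66 and 2.81 at 4 h and 2.90, 3.21 and 3.13 at 18 h. For Etfdh, the Irf4+/- arrays read 2.57, 2.68 and 2.43 in mock, 2.70, 3.14 and 2.47 at 4 h and 2.97, 3.11 and 2.74 at 18 h. In both genotypes the 18 h arrays lay above the mock arrays. Over both genotypes the 18 h change was 0.43 ± 0.13 (adjusted p = 0.0437), a call lost in 17 of 24 alternative settings. With the block it was called in Irf4-/- cells, at 0.48 ± 0.14 (adjusted p = 0.0317), and in Irf4+/- cells it was 0.38 ± 0.18, not called. Among the settings that lost the call over both genotypes were 10 that leave out 1 array (all but Irf4-/- 18 h A and Irf4+/- 18 h C of the 12 compared), with adjusted p between 0.0553 and 0.111. The other Etfdh probe gave 0.27, under the value of the first by more than 1.5 times.

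Of the 3 peroxisomal genes tested, Ehhadh was called, and only with the block. It encodes the peroxisomal bifunctional enzyme, known as a PPAR alpha target in liver. Ehhadh in Irf4-/- cells stood at -3.77, -2.94 and -2.67 in mock, -4.56, -2.99 and -2.84 after 4 h and -5.06, -3.49 and -3.32 after 18 h. Ehhadh in Irf4+/- cells stood at -3.36, -2.46 and -2.43 in mock, -3.79, -2.75 and -2.42 after 4 h and -4.44, -3.12 and -2.91 after 18 h. All 3 experiments of both genotypes moved down at 18 h, and the groups overlapped because experiment A stood far below B and C. The 18 h change was -0.83 ± 0.16 in Irf4-/- cells (adjusted p = 0.0034 with the block, 0.646 without) and -0.74 ± 0.16 in Irf4+/- cells (adjusted p = 0.00636 with the block, 0.856 without), and -0.79 ± 0.11 over both (adjusted p = 0.000177 with the block). With normexp background correction the change turned to 0.81 in Irf4+/- cells and to 0.19 over both genotypes, so the direction of this dim probe depends on the background correction. Acaa1a, the peroxisomal thiolase, and Hsd17b4, the other bifunctional enzyme, were not called in any comparison, with 18 h changes over both genotypes of -0.12 ± 0.17 for Acaa1a and 0.11 ± 0.11 for Hsd17b4. Acaa1a has a near-identical paralog, Acaa1b, and cross-hybridisation between them was not tested.

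Among the regulators, Mlycd rose early. Mlycd encodes malonyl-CoA decarboxylase, which degrades malonyl-CoA, the inhibitor of the Cpt1a enzyme. Mlycd levels in Irf4-/- cells were 3.01, 3.21 and 3.09 in mock cultures, 3.58, 3.53 and 3.60 at 4 h of IL-4 and 3.29, 3.55 and 3.42 at 18 h. Mlycd levels in Irf4+/- cells were 3.13, 3.13 and 2.82 in mock cultures, 3.87, 3.71 and 3.25 at 4 h of IL-4 and 3.55, 3.25 and 3.10 at 18 h. The 4 h arrays of both genotypes lay above the mock arrays. The 4 h level over both genotypes was 1.44 times mock (log2 change 0.53 ± 0.13, adjusted p = 0.0137), and within experiments the change lay between 0.32 and 0.57 in Irf4-/- cells and between 0.43 and 0.74 in Irf4+/- cells. In single genotypes it was called only with the block, at 0.47 ± 0.15 (adjusted p = 0.0398) in Irf4-/- cells and 0.58 ± 0.15 (adjusted p = 0.0132) in Irf4+/- cells. At 18 h the change over both was 0.30 ± 0.10, called only with the block (adjusted p = 0.044). The rise of Mlycd and the fall of Cpt1a were thus measured at the same time of IL-4.

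Ucp2 encodes a mitochondrial inner membrane carrier of the uncoupling protein family. For Ucp2, the Irf4-/- arrays read 2.44, 2.19 and 1.98 in mock, 2.16, 2.09 and 1.79 at 4 h and 2.94, 2.56 and 2.19 at 18 h. For Ucp2, the Irf4+/- arrays read 2.71, 2.45 and 2.24 in mock, 2.33, 2.27 and 2.04 at 4 h and 3.30, 2.84 and 2.59 at 18 h. In both genotypes the 18 h arrays lay above the 4 h arrays, and mock overlapped with both. Over both genotypes the change was -0.22 ± 0.07 at 4 h and 0.40 ± 0.07 at 18 h, called only with the block (adjusted p = 0.0376 at 4 h and 0.00126 at 18 h). Within genotypes the block gave 18 h calls of 0.36 ± 0.11 (adjusted p = 0.0311) in Irf4-/- and 0.44 ± 0.11 (adjusted p = 0.0119) in Irf4+/- cells. The step between the times was 0.55 ± 0.11 in Irf4-/- cells and 0.70 ± 0.11 in Irf4+/- cells, likewise called only with the block (adjusted p = 0.0078 in Irf4-/- and 0.00125 in Irf4+/-). The other 2 Ucp2 probes gave 0.32 and 0.27 at 18 h.

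Ppargc1a encodes PGC-1 alpha, a coactivator of mitochondrial genes in muscle and liver. Of its 2 probes only 1 passed the background filter, and that probe was dim. Ppargc1a in Irf4-/- cells stood at -4.23, -4.66 and -5.24 in mock, -4.05, -4.59 and -5.20 after 4 h and -3.73, -4.53 and -5.20 after 18 h. Ppargc1a in Irf4+/- cells stood at -3.89, -4.03 and -5.13 in mock, -3.61, -4.39 and -5.60 after 4 h and -3.85, -4.31 and -5.68 after 18 h. The groups overlapped throughout, and no comparison called it, with -0.04 ± 0.41 at 4 h and -0.02 ± 0.41 at 18 h. Ppard, the PPAR delta receptor, was not called either, with 0.08 ± 0.36 at 4 h and 0.36 ± 0.36 at 18 h. Ppara, the PPAR alpha receptor, was well above background on 0 of 18 arrays. Pdk4, the kinase that shuts pyruvate out of the mitochondrial cycle, was well above background on 5 of 18 arrays, all but 1 of them in experiment A. Pdk4 levels in Irf4-/- cells were -6.57, -7.03 and -7.16 in mock cultures, -6.07, -7.06 and -6.93 at 4 h of IL-4 and -6.22, -6.66 and -8.07 at 18 h. Pdk4 levels in Irf4+/- cells were -5.67, -6.57 and -6.88 in mock cultures, -5.71, -7.63 and -8.42 at 4 h of IL-4 and -6.03, -6.60 and -7.75 at 18 h. With most of these values below the background criterion, no fold is given for Pdk4 or Ppara.

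Acot2, the mitochondrial thioesterase that frees fatty acids from coenzyme A again, fell early. For Acot2, the Irf4-/- arrays read -1.72, -1.99 and -1.80 in mock, -2.18, -2.27 and -2.29 at 4 h and -1.75, -0.92 and -1.77 at 18 h. For Acot2, the Irf4+/- arrays read -1.52, -1.85 and -1.77 in mock, -2.28, -2.69 and -2.40 at 4 h and -1.60, -2.14 and -1.73 at 18 h. The 4 h arrays of both genotypes lay below the mock arrays and below the 18 h arrays. The 4 h level over both genotypes was 0.67 times mock (log2 change -0.58 ± 0.16, adjusted p = 0.0286), a call lost in 11 of 24 alternative settings. Among them were 6 that leave out 1 array (Irf4-/- mock A or C, Irf4-/- 4 h B or C, Irf4+/- mock A or Irf4+/- 4 h B), with adjusted p between 0.0511 and 0.0671. At 18 h it was 0.36 ± 0.22 in Irf4-/- cells, where experiment B alone stood high, and -0.11 ± 0.22 in Irf4+/- cells, neither called. With the block 2 further calls were made, for the 4 h change in Irf4+/- cells, at -0.74 ± 0.21 (adjusted p = 0.0279), and for 18 h against 4 h in Irf4-/- cells, at 0.77 ± 0.21 (adjusted p = 0.0442). Acot2 is nearly identical to its neighbour Acot1, whose probe fell by more at 4 h (log2 change -1.66 ± 0.35, adjusted p = 0.00609), and cross-hybridisation between them was not tested.

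Of the 4 lipid store genes, 0 were called without the block at either time (limma), and with it 1 was lower at 4 h (14.7% of all genes) and 1 higher at 18 h (17.9%). Plin2 encodes perilipin 2, the coat protein of macrophage lipid droplets. Its lowest group means were at 4 h in both genotypes. Plin2 in Irf4-/- cells stood at 6.37, 6.85 and 6.87 in mock, 5.86, 6.65 and 6.16 after 4 h and 6.32, 7.23 and 7.25 after 18 h. Plin2 in Irf4+/- cells stood at 6.82, 6.84 and 6.93 in mock, 6.05, 6.52 and 6.19 after 4 h and 7.11, 7.30 and 6.96 after 18 h. In Irf4+/- cells the 4 h arrays lay below and the 18 h arrays above the mock arrays, and in Irf4-/- cells the groups overlapped because experiment A stood low. The 4 h change over both genotypes was -0.54 ± 0.13, called only with the block (adjusted p = 0.00579; 0.0793 without it). In Irf4+/- cells it was -0.61 ± 0.18 (adjusted p = 0.0341) with the block, and in Irf4-/- cells -0.48 ± 0.26, not called. The step between 4 h and 18 h was 0.71 ± 0.18 in Irf4-/- cells (adjusted p = 0.0317 with the block) and 0.87 ± 0.18 in Irf4+/- cells (adjusted p = 0.00859 with the block). Against mock the 18 h change over both was 0.25 ± 0.19, not called.

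The 3 lipases act in sequence, Pnpla2 on triglyceride, Lipe on diglyceride and Mgll on monoglyceride. Mgll levels in Irf4-/- cells were -3.93, -4.34 and -3.25 in mock cultures, -4.27, -4.45 and -4.03 at 4 h of IL-4 and -4.12, -2.94 and -2.61 at 18 h. Mgll levels in Irf4+/- cells were -4.20, -3.61 and -3.63 in mock cultures, -4.21, -3.94 and -4.33 at 4 h of IL-4 and -3.46, -2.81 and -2.69 at 18 h. The 18 h arrays of Irf4+/- cells lay above mock and 4 h, and in Irf4-/- cells experiment A stayed at the mock level while B and C moved up. The 18 h change over both genotypes was 0.72 ± 0.20, called only with the block (adjusted p = 0.0167), and the other Mgll probe gave 0.44. Between 4 h and 18 h it was 1.03 ± 0.29 in Irf4-/- cells (adjusted p = 0.0457 with the block) and 1.18 ± 0.29 in Irf4+/- cells (adjusted p = 0.0195 with the block). Pnpla2 was not called, with 0.31 ± 0.19 at 4 h and 0.47 ± 0.19 at 18 h, and its other probe gave 0.07 at 4 h and 0.28 at 18 h. Lipe was not called for IL-4 either. For Lipe, the Irf4-/- arrays read -1.20, -0.96 and -1.21 in mock, -1.40, -0.83 and -1.13 at 4 h and -1.51, -1.25 and -1.65 at 18 h. For Lipe, the Irf4+/- arrays read -1.23, -0.52 and -1.11 in mock, -1.17, -0.36 and -0.81 at 4 h and -1.56, -0.59 and -1.10 at 18 h. The 18 h arrays lay below mock in Irf4-/- cells and overlapped with it in Irf4+/- cells, with -0.24 ± 0.19 over both and -0.06 from the other Lipe probe.

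Adipoq, which encodes the adipocyte hormone adiponectin, was the 1 gene of 6 adipocyte markers whose IL-4 arrays lay wholly apart from the mock arrays in both genotypes at both times. In Irf4-/- cells it ran from -9.53 to -6.55 in mock, from -4.49 to -2.44 at 4 h and from -3.99 to -2.42 at 18 h. In Irf4+/- cells it ran from -8.03 to -6.47 in mock, from -3.31 to -0.89 at 4 h and from -2.64 to -0.61 at 18 h. The summed level of the 6 markers moved with it, from -4.73 to -3.12 in mock, from -3.26 to -1.60 at 4 h and from -2.87 to -1.90 at 18 h in Irf4-/- cells, and in Irf4+/- cells from -4.49 to -3.11 in mock, from -2.83 to -0.65 at 4 h and from -2.27 to -0.36 at 18 h. Without Adipoq the sums of the 3 conditions overlapped in both genotypes, between -4.78 and -2.78 in Irf4-/- cells and between -4.66 and -3.03 in Irf4+/- cells. Of the other 5, Cidec was well above background on all 18 arrays, Plin1 on 15, Retn on 5, Cfd on 1 and Lep on 0. The summed level of 6 B lineage markers was lower at 18 h, from 0.29 to 0.59 in Irf4-/- cells and from 0.45 to 1.05 in Irf4+/- cells, against mock values of 0.58 to 1.02 in Irf4-/- and 1.11 to 1.59 in Irf4+/- cells. Its brightest gene, Cd79b, ran from -0.33 to 1.77 over the 18 arrays, and the other 5 stayed at or under -1.26. Of the 6, 4 were well above background on all 18 arrays, and 0 were below it on every array. The summed level of 6 neutrophil markers ran from 4.06 to 5.70 in Irf4-/- mock and reached at most 4.42 in Irf4+/- mock, with overlapping ranges. Within each genotype the neutrophil sums of the 3 conditions overlapped. The part of Adipoq or of any of these lists in the changes of the members was not tested.

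No member was called between the genotypes in any single condition. Between Irf4-/- and Irf4+/- cells limma called 0 of 34 members in mock (0.0% of all genes), at 4 h (0.0%), at 18 h (0.0258%) and over the 3 conditions (0.0%), and 0 members had an unadjusted p under 0.05 in mock and at 4 h, 1 at 18 h and 2 over the 3 conditions. The share of all genes with an unadjusted p under 0.05 is not given. With the block the counts were also 0 in mock (0.0323% of all genes), at 4 h (0.0258%) and at 18 h (0.432%). For Cpt1a the difference was -0.16 ± 0.19 in mock, -0.04 ± 0.19 at 4 h and -0.16 ± 0.19 at 18 h. The other Cpt1a probe gave larger differences, of -0.50 in mock, -0.12 at 4 h and -0.34 at 18 h. For Crat the difference was -0.27 ± 0.23 in mock, -0.16 ± 0.23 at 4 h and -0.39 ± 0.23 at 18 h. At 18 h the Irf4-/- arrays of Acsl1 all lay above the Irf4+/- arrays, with a difference of 0.42 ± 0.17 that was not called. The other Acsl1 probes gave -0.12 and 0.18 for that difference, so its direction is not settled by these probes. The tests of whether the IL-4 change itself differed between genotypes called 0 members at 4 h and at 18 h, with and without the block (0.0% of all genes in each). The difference of responses, Irf4-/- minus Irf4+/-, was 0.13 ± 0.27 at 4 h for Cpt1a, -0.11 ± 0.25 at 4 h for Mlycd, 0.25 ± 0.24 at 18 h for Acsl1 and -0.12 ± 0.33 at 18 h for Crat. In the fit with the block the SE of these differences of responses was 0.17 for Cpt1a, 0.21 for Mlycd, 0.18 for Acsl1 and 0.19 for Crat. For the same differences the other Cpt1a probe gave 0.38, and the other Acsl1 probes gave -0.16 and 0.11. A missed threshold does not show that the genotypes were alike.

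Averaged over the 3 conditions with the experiment as a block, 6 members were called between genotypes, 2 higher and 4 lower in Irf4-/- cells, against 8.13% of all genes called in either direction, 4.17% higher and 3.96% lower. The higher ones were Acsl3 (0.32 ± 0.08, adjusted p = 0.0323) and Acsl5 (0.22 ± 0.06, adjusted p = 0.0431). The lower ones were Ehhadh (-0.44 ± 0.09, adjusted p = 0.0183), Hadha (-0.37 ± 0.09, adjusted p = 0.0259), Lipe (-0.30 ± 0.08, adjusted p = 0.0396) and Ucp2 (-0.27 ± 0.06, adjusted p = 0.0226). In mock the 3 Irf4-/- arrays of Acsl3 lay above the 3 Irf4+/- arrays, and the Ucp2 levels were lower in Irf4-/- cells in all 3 experiments of each condition. This fit takes the 3 arrays of a genotype in an experiment as independent, and the experiment block does not allow for what those arrays share. With slide in the fit, as a fixed or a random block, 0 members were called. With a random block for each pool of cells, 0 were called as well. The other Hadha probe gave a difference of 0.21 over the 3 conditions, from 0.85 in mock, -0.13 at 4 h and -0.10 at 18 h. The printed Hadha probe turned to 0.19 with slide as a fixed block. Genotype and slide cannot be told apart here.

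A wider list of 92 genes of the same pathways outside the members, of which 85 were tested, was read beside them. Over both genotypes, 7 rose and 3 fell at 4 h, a share of the 85 near the 11.2% of all genes called, and with the block 19 were higher and 11 lower (17.2% and 14.7% of all genes). At 18 h 9 rose and 0 fell, against 9.89% of all genes called in either direction and 5.05% called higher. With the block 26 were higher and 6 lower (17.9% and 12.3%). At 4 h the rises with the largest changes were Dgat2, which makes triglyceride (1.74 ± 0.23, adjusted p = 0.00016), Ppargc1b, which encodes PGC-1 beta (1.63 ± 0.20, adjusted p = 9.05e-05), Slc22a5, the carnitine importer (1.56 ± 0.18, adjusted p = 4.32e-05), Oxct1, which activates ketone bodies (0.93 ± 0.14), and the racemase Amacr (0.44 ± 0.09). Besides Acot1, the falls were Nr1h3, which encodes the receptor LXR alpha (-1.21 ± 0.16, adjusted p = 0.000175), and Lipa, the lysosomal lipase (-0.85 ± 0.19, adjusted p = 0.00933). At 18 h the rises with the largest changes were Abcd2, a peroxisomal fatty acid transporter (2.10 ± 0.45, adjusted p = 0.00673), Ppargc1b (1.40 ± 0.20), Fabp4, a fatty acid binding protein (1.36 ± 0.37, adjusted p = 0.0287), Oxct1 (1.27 ± 0.14) and Dgat2 (1.17 ± 0.23). The median log2 change of the 85 genes was 0.03 at 4 h and 0.15 at 18 h, against 0.04 at 4 h and 0.08 at 18 h over all genes tested. Of the 2 PGC-1 coactivators, Ppargc1b rose at both times and Ppargc1a was not called; the difference between them was not tested.

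Start-site windows of 300 bases were matched by symbol for 32 of the 36 members found on the array (RefSeq, GRCm38.p6). They gave 35 windows, because some genes have more than 1 annotated start. No window was matched for Acaa2, Crat, Decr1 and Hsd17b4, and none was looked up for Hadh. Searched on both strands, the nuclear receptor repeat (AGGNCA and again AGGNCA with 1 base between) was found in 0 of 35 windows and in 0.381% of 32851 windows of all genes. The STAT6-type palindrome (TTC and GAA with 4 bases between) was found in 0 of 35 and in 6.95% of all, and the single ERR element TCAAGGTCA in 0 of 35 and in 0.423% of all. These letters are not in these windows, which cover no enhancer and no longer promoter. The median member window was 60.7% G and C with 18 CpG dinucleotides, against 52.7% G and C with 7 over all windows.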

How the data were processed

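RNA from 18 macrophage cultures was hybridised to single-colour Agilent arrays, 1 array per sample. Per the file headers, the authors extracted the spots with Agilent Feature Extraction 9.5.1, and the deposited files hold each spot's intensity after background subtraction, with no scaling between arrays, together with other columns the software wrote: mean and background intensity and the flags for control, outlier, saturated and well-above-background spots. The authors' deposited series table gives log2 values that matched each array minus the Irf4+/- mock array of its experiment (r of 0.9999 or more in each column), so the 3 Irf4+/- mock columns are 0 throughout. It served only as an alternative.

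Groups and experiment letters came from the sample titles. Levels are the log2 of the deposited intensity minus that of the 75th percentile on the same array, without control and outlier spots and with spots of a probe averaged. Probes had to be well above background on every array of some group, which kept 27505 of 41174. Genes were named by accession, current symbol, synonym or file name, and each was tested by its brightest kept probe. Tests used limma 3.58.1 in R 4.3.3 with 1 mean per group over all 18 arrays, 14 comparisons and Benjamini-Hochberg adjustment over 15497 genes within each comparison. The scripts were tested on simulated data with known changes, for 18 h against mock in Irf4-/- cells without the block. They called 37% of 100 simulated log2 changes of size 1 and 77% of 100 changes of size 2, with 4 false calls. The simulated errors were independent between arrays, whereas the measured arrays of an experiment shared much of their spread. These rates thus describe independent arrays only. A change that was not called can still be a missed one. The p-values measure the spread between cultures of pooled cells.

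The experiment letters pair the samples, since the study's design text gives 3 independent experiments with littermates in each, and same-letter arrays deviated together (correlation of deviations 0.43 to 0.88 over 45 pairs, median 0.63, against a median of -0.42 over 90 pairs of different letters). Deviations from a mean cancel out over its arrays, so likeness within letters by itself pushes the other pairs negative. The median of -0.42 is therefore no separate evidence for the pairing. Alternatives were the experiment as a block, slide or pool of cells as a block, other scalings, background corrections, filters and probe summaries, the deposited table, only the groups compared, and each array left out in turn.

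Genes described in full are the members called in any comparison with or without the block, plus Cpt1a, Ppargc1a, Pdk4, Plin2 and Ucp2, and up to 5 rises and 5 falls of the wider pathway list. The members and lists were chosen with earlier results of these data known.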

Additional observations from a re-analysis of the deposited data

How the results depend on the processing

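All values here are counts of members called among 34 unless stated. Without the block the largest counts were those over both genotypes, 4 at 4 h and 4 at 18 h. With the experiment as a replicate block the counts were 7 (4 h, Irf4-/-), 8 (4 h, Irf4+/-), 14 (4 h, both), 10 (18 h, Irf4-/-), 7 (18 h, Irf4+/-), 19 (18 h, both), 7 (18 h against 4 h, Irf4-/-), 9 (18 h against 4 h, Irf4+/-) and 6 (genotype over 3 conditions). In the same order up to 18 h against 4 h, slide as a fixed block gave 7, 9, 15, 15, 10, 20, 12 and 9, slide as a random block 7, 9, 16, 17, 13, 21, 14 and 13, and a random block for each pool of cells 10, 9, 18, 19, 17, 25, 14 and 15, with 0 between genotypes in each. The pairing changed no call between genotypes within a single condition and none of the differences of responses.

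Other settings moved counts by fewer genes. Normexp background correction gave 0 at 4 h in each genotype, 1 at 18 h in Irf4+/- cells and over both, and 0 for 18 h against 4 h in Irf4+/- cells. Normexp without spots far below their local background gave 2 at 4 h in Irf4-/- cells, 1 at 18 h in Irf4+/- cells and 2 over both. No filter on dim probes gave 0 at 4 h in Irf4-/- cells, 1 at 18 h in Irf4+/- cells, 2 over both and 0 for 18 h against 4 h in Irf4+/- cells. Fitting only the groups compared gave 0 in each single-genotype comparison and 2 at 18 h over both. Quantile normalization gave 2 at 4 h in Irf4-/- cells, 1 at 18 h in Irf4+/- cells and 2 for 18 h against 4 h in Irf4+/- cells. Median scaling gave 2 at 18 h over both. The mean of kept probes gave 1 at 18 h in Irf4-/- cells, and it and the filter on all 18 arrays gave 2 for 18 h against 4 h in Irf4+/- cells. The authors' deposited table, in which the Irf4+/- mock arrays have no spread, gave 2 at 4 h and 3 at 18 h in Irf4-/- cells, and 3 in Irf4-/- and 4 in Irf4+/- cells for 18 h against 4 h. Leaving out 1 array gave 0 to 1 at 4 h in Irf4-/- cells, 0 to 2 at 4 h in Irf4+/- cells, 0 to 1 at 18 h in Irf4+/- cells, 2 to 5 at 18 h over both and 0 to 1 for 18 h against 4 h in Irf4+/- cells. The causes were not tested, except that fewer arrays or groups leave fewer degrees of freedom.

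There were 3 gene values that changed sign: Ehhadh at 18 h with normexp (0.81 in Irf4+/- cells and 0.19 over both genotypes), and Hadha between genotypes with slide as a fixed block (0.19). All 13 gene changes called without the block kept their sign in the alternatives run. Normexp moved the median change of all genes by up to -0.22 at 4 h in Irf4-/- cells and 0.20 in Irf4+/- cells. The number of arrays, 3 a group, limits what can be read, as does the signal of Ppara and Pdk4, which missed the background criterion on most arrays.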
